A study of Homo sapiens with 60 samples.

Results

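The lowest dose, 20 µg/mL, of 4 herbal water extracts was compared with vehicle in HT29, a long-established line grown from a human colorectal adenocarcinoma. One extract was of Poria Cocos (called Poria here), another of Panax Ginseng (Ginseng). The remaining ones were of Angelicae Gigantis Radix (Angelicae) and of Paeoniae Radix (Paeoniae). Libraries were chosen by their titles, which gave 11 low-dose libraries and 3 vehicle libraries out of the 60 of the series. Poria, Ginseng and Angelicae had 3 libraries each, Paeoniae had 2, and vehicle, labelled 0.1% DMSO, had 3. The series text describes lower doses for extracts with a low inhibitory concentration, whereas the labels give the same doses for every extract; the doses printed are those of the labels. Every group was treated for 24 h, and the labels do not say whether replicates came from separate cultures, so p-values measure the spread between these libraries, which may be technical. The same 4 extracts at 100 and 500 µg/mL (11 libraries each), Atractylodis Rhizoma (Atractylodis) and Glycyrrhizae Radix (Glycyrrhizae) at 20 µg/mL (3 each) and the PI3K inhibitors wortmannin and LY294002 at 10 µM (3 each) serve below as points of comparison.

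The titles of all libraries used here carry the same batch name, BatchA. Within it, the first number of the sample codes divides the libraries into sets, and its meaning is not stated. The vehicle codes alone have the letter A before that number. It is 1 for vehicle and the inhibitors, 2 for Poria and Atractylodis, 3 for Ginseng and Glycyrrhizae, and 4 for Angelicae and Paeoniae. No vehicle library is in set 2, 3 or 4, so an effect of an extract and an effect of its code set cannot be told apart against vehicle. The labels of the extracts give no DMSO, so a difference in DMSO cannot be told apart from the extract against vehicle either. Differences between doses of 1 extract, or between extracts of 1 code set, do not use vehicle and stay within a set.

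HT29 cells are transformed colonocytes that keep part of the secretory program of the gut, including gel-forming mucins. Plant extracts reach such cells as mixtures, and several of their common targets have well known transcript readouts. Flavonoids and indoles can act on the aryl hydrocarbon receptor, which induces the cytochrome P450 gene CYP1A1, and electrophiles release the transcription factor NRF2, which induces detoxifying enzymes such as NQO1 and AKR1B10. Microbial products and polysaccharide preparations can act through NF-kB, which induces chemokines such as CXCL1 and CXCL8 in epithelium.

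The deposited expected counts summed to 23840050 to 35477712 in the 11 low-dose libraries (median 27773496) and to 23349216 to 24770997 in the 3 vehicle libraries. Transcripts encoded in mitochondria took 7.20% to 9.17% of the counts in the low-dose libraries (median 8.11%) and 8.61%, 9.90% and 11.4% in vehicle. The mean share differed by -1.75 percentage points between low-dose and vehicle libraries (exact permutation test over 364 regroupings, two-sided p = 0.0137, where the smallest possible p is 0.00275), and their mean total was higher (p = 0.0385). These permutation tests regrouped the libraries freely, although libraries of 1 extract share a code set, so their p-values can be too small. The part of these library differences in the gene results below was not tested. Defining colon epithelial markers summed to 11930 to 12840 CPM in the low-dose libraries and 12020 to 12520 CPM in vehicle, led by the keratins KRT8 and KRT18, while 1 of the 10, CDX1, averaged under 1 CPM. Averages under 1 CPM were found for 6 of 7 fibroblast markers, 4 of 8 leukocyte markers (CD3E and MS4A1 at 0), 4 of 5 endothelial markers (KDR at 0) and 4 of 6 hepatocyte markers. Their sums were 1.78 to 2.44 CPM in low-dose libraries and 2.14 to 2.43 CPM in vehicle for fibroblasts, and 2.43 to 2.89 CPM in low-dose libraries and 2.01 to 2.22 CPM in vehicle for endothelium, which did not overlap. They were 1376 to 1553 CPM in low-dose libraries and 1379 to 1444 CPM in vehicle for leukocytes, nearly all LYZ, and 407 to 493.9 CPM in low-dose libraries and 460.9 to 512.6 CPM in vehicle for hepatocytes, mostly SERPINA1. LYZ and SERPINA1 are also made by intestinal epithelium, and the part of these markers in the results was not tested.

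Against vehicle, the mean of the 4 extracts at 20 µg/mL differed for few genes and by small amounts. Of 16767 genes tested, 17 were called at an adjusted p under 0.05 (0.101% of those tested), 9 higher and 8 lower. DESeq2, run as a second tool, called 151. The count rested on few libraries: leaving out 1 library at a time gave 0 calls (without Angelicae replicate 2, Ginseng replicate 3 or Poria replicate 1) to 34 (without vehicle replicate 1). It gave 1 without vehicle replicate 2 or 3 or Paeoniae replicate 1, 8 without Angelicae replicate 3, 10 without Ginseng replicate 2, 30 without Paeoniae replicate 2 and 33 without Angelicae replicate 1. Leaving out an extract gave 0 without Ginseng, Angelicae or Paeoniae and 243 without Poria. In bulk RNA, fewer cells of a kind and less RNA per cell cannot be told apart. All 17 had the same sign in each of the 4 extracts, although the median absolute log2 change of the 17 was 0.14 in Poria, 0.23 in Ginseng, 0.26 in Angelicae and 0.24 in Paeoniae. Because the 17 were chosen from the same libraries, these sizes are a description only.

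CDK5RAP3, an adaptor of the UFM1 ligase that modifies ribosomes at the endoplasmic reticulum (GRCh38 chr17:47967810-47981774), had 55.4, 50.1 and 49.5 CPM in Poria, 59.6, 65.0 and 69.2 CPM in Ginseng, 57.4, 67.0 and 67.0 CPM in Angelicae and 63.9 and 62.1 CPM in Paeoniae, against 49.2, 48.5 and 44.9 CPM in vehicle. Every low-dose library lay above every vehicle library, with Poria closest to vehicle. The log2 fold change of the mean was 0.35 (SE 0.0724, edgeR adjusted p = 0.0321). TRMT2A, which methylates uridine in transfer RNA (chr22:20111866-20117392), was at 60.5, 64.8 and 69.8 CPM (lowest, median and highest of 11) in the low-dose libraries and 58.4, 56.1 and 53.7 CPM in vehicle, which gave a log2 fold change of 0.21 (SE 0.0428, edgeR adjusted p = 0.0321). DDX11, a DNA helicase of sister chromatid cohesion (chr12:31073845-31104791), was at 89.9, 95.9 and 101 CPM in the low-dose libraries and 86.0, 83.2 and 83.3 CPM in vehicle, which gave a log2 fold change of 0.19 (SE 0.0351, edgeR adjusted p = 0.0321); it has near-identical copies in the genome, among which RSEM can split reads, so its level is uncertain. For both genes, as for CDK5RAP3, the groups did not overlap, which the rule that named them required.

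RHOT2, a GTPase that couples mitochondria to motor proteins (chr16:668086-674174), was at 88.4, 93.3 and 97.7 CPM in the low-dose libraries and 83.2, 84.8 and 80.0 CPM in vehicle, which gave a log2 fold change of 0.17 (SE 0.0348, edgeR adjusted p = 0.0321). TIFA, the adaptor through which the bacterial sugar sensor ALPK1 reaches TRAF6 (chr4:112274542-112285903), was at 10.2, 11.8 and 13.4 CPM in the low-dose libraries and 9.73, 9.99 and 9.37 CPM in vehicle, which gave a log2 fold change of 0.29 (SE 0.0642, edgeR adjusted p = 0.0495). CENPT, an inner kinetochore protein (chr16:67828157-67847811), was at 23.9, 26.7 and 29.4 CPM in the low-dose libraries and 22.2, 22.2 and 23.3 CPM in vehicle, with 0.23 (SE 0.0505, edgeR adjusted p = 0.0495). For these 3 genes too, all 11 low-dose libraries lay above the 3 vehicle libraries, as the rule that named them required. That held for 170 of the 16767 genes tested (1.01%). ACADVL, the mitochondrial dehydrogenase of very long acyl chains (chr17:7217125-7225273), had a log2 fold change of 0.15 (SE 0.0326, edgeR adjusted p = 0.0377), with 1 low-dose library of Poria inside the vehicle range. The cytosolic mannosidase MAN2C1, at 0.31 (SE 0.0654, edgeR adjusted p = 0.0349), and the nicotinate salvage enzyme NAPRT, at 0.22 (SE 0.0450, edgeR adjusted p = 0.0321), also rose with some overlap between the groups and were named after their values were seen.

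NFAT5, the transcription factor of the response to high salt (chr16:69565094-69704666), had 139, 139 and 139 CPM in Poria, 139, 132 and 136 CPM in Ginseng, 132, 122 and 129 CPM in Angelicae and 138 and 132 CPM in Paeoniae, against 150.3, 160.3 and 162 CPM in vehicle. No low-dose library reached the lowest vehicle library, and the log2 fold change was -0.23 (SE 0.0471, edgeR adjusted p = 0.0321). TRA2A, a splicing regulator (chr7:23504780-23532041), was at 107, 111 and 115 CPM in the low-dose libraries and 128, 125 and 124 CPM in vehicle, which gave a log2 fold change of -0.17 (SE 0.0384, edgeR adjusted p = 0.0495). CASP2, an initiator-type caspase (chr7:143288215-143307696), was at 106, 111 and 115 CPM in the low-dose libraries and 120.5, 123 and 122 CPM in vehicle, with -0.14 (SE 0.0275, edgeR adjusted p = 0.0321). PSME3, a nuclear activator of the proteasome (chr17:42824385-42843758), was at 238, 251 and 259 CPM in the low-dose libraries and 269, 277 and 285 CPM in vehicle, with -0.15 (SE 0.0336, edgeR adjusted p = 0.0495). In these 4 genes all 11 low-dose libraries lay below the 3 vehicle libraries, as the rule that named them required. That held for 204 of all genes tested (1.22%).

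The transcription factor SP2, at -0.35 (SE 0.0717, edgeR adjusted p = 0.0321), and the transcriptional coactivator ZMIZ1, at -0.28 (SE 0.0632, edgeR adjusted p = 0.0495), fell as well, although 1 Poria library reached into the vehicle range for each; both were named after their values were seen. MUC5B, a gel-forming mucin (chr11:1223066-1262172), had 0.769, 1.05 and 1.14 CPM in Poria, 0.687, 0.704 and 0.717 CPM in Ginseng, 0.415, 0.579 and 0.427 CPM in Angelicae and 0.441 and 0.620 CPM in Paeoniae, against 0.982, 1.36 and 1.28 CPM in vehicle. All libraries but 2 of Poria lay below vehicle, and the log2 fold change of the mean was -0.90 (SE 0.202, edgeR adjusted p = 0.0495). In Angelicae alone it was -1.34 (SE 0.270, edgeR adjusted p = 0.0366). MUC2, the main mucin of the colon, was at 15.3, 17.5 and 24.0 CPM in the low-dose libraries and 18.0, 19.6 and 25.8 CPM in vehicle, which overlapped.

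**Figure D1:**
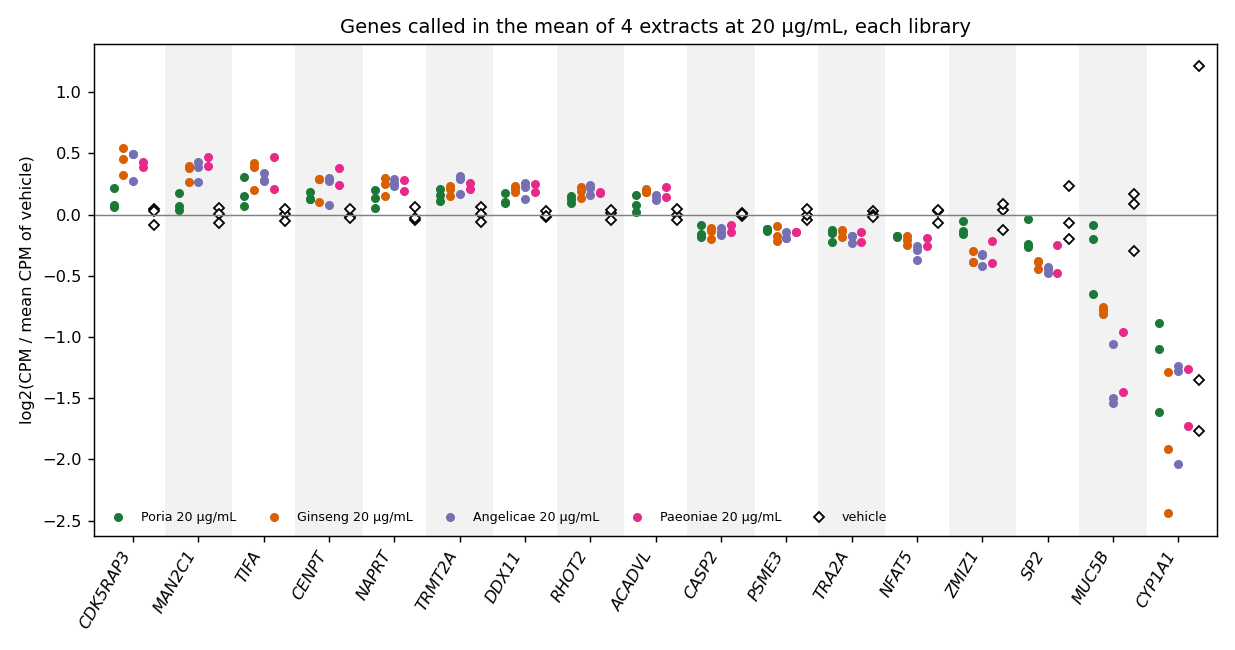
Each point is 1 library's log2 ratio of CPM to the mean CPM of the 3 vehicle libraries, for the 17 genes called in the mean of the 4 extracts at 20 µg/mL, ordered by log2 fold change. Coloured circles are the 11 low-dose libraries by extract and open diamonds are vehicle; the median absolute change was smallest in Poria, and for CYP1A1 a single vehicle library stands above all others.

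The largest fold among the 17 rested on 1 vehicle library. CYP1A1 (chr15:74719542-74725610) had 0.688, 0.980 and 1.14 CPM in Poria, 0.556, 0.387 and 0.861 CPM in Ginseng, 0.866, 0.511 and 0.889 CPM in Angelicae and 0.634 and 0.875 CPM in Paeoniae, against 4.87, 0.822 and 0.619 CPM in vehicle. Vehicle replicate 1 stood above all 13 other libraries, while replicates 2 and 3 lay inside the range of the extracts. The log2 fold change was -1.48 (SE 0.302, edgeR adjusted p = 0.0321), and it was 0.05 (edgeR adjusted p = 0.955) without vehicle replicate 1. CYP1B1, another target of the aryl hydrocarbon receptor, was also high in that library: it had 50.3, 54.2 and 59.5 CPM in the low-dose libraries and 90.8, 56.9 and 52.5 CPM in vehicle. The receptor's target TIPARP showed a smaller excess in the same library, with 87.5, 92.1 and 105 CPM in the low-dose libraries and 112, 94.3 and 95.7 CPM in vehicle, while its repressor AHRR had 5.83, 6.88 and 7.37 CPM in the low-dose libraries and 7.00, 6.29 and 6.54 CPM in vehicle. Of 7 tested members of a list of receptor targets, CYP1A1 was the 1 called in the mean, beside 0.101% of all genes. The promoter of CYP1A1 is shown because the receptor is known to bind sites with the core GCGTG. Over the 250 bases before the RefSeq start (GRCh38.p14, chr15:74725529-74725778, minus strand), GCGTG, searched on both strands, matched once, 57 bases before the start and in capitals here; 32.2% of 35116 RefSeq promoter windows of that length hold it.
CYP1A1: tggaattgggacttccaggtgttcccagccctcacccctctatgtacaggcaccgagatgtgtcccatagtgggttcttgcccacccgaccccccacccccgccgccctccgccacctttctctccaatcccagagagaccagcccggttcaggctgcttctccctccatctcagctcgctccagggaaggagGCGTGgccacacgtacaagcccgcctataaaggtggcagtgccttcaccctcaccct

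Taken singly, 3 of the 4 extracts gave no call against vehicle. In Poria, edgeR called 0 genes (0%), with 834 genes at an unadjusted p under 0.05, and DESeq2 called 1. In Ginseng it called 0 (0%) with 2567 at an unadjusted p under 0.05, the lowest adjusted p was 0.0519, and DESeq2 called 155. In Paeoniae, with 2 libraries, it called 0 (0%) with 1163 at an unadjusted p under 0.05, the lowest adjusted p was 0.0611, and DESeq2 called 13. In Angelicae it called 29 genes (0.173%), 14 higher and 15 lower, with 3067 at an unadjusted p under 0.05, and DESeq2 called 443. Leaving out 1 library changed the Angelicae count to 0 (without Angelicae replicate 2 or 3, or vehicle replicate 2 or 3), 7 (without Angelicae replicate 1) or 141 (without vehicle replicate 1). The differences between extracts were tested directly, without vehicle, further on.

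Of the 29 genes of Angelicae, 10 were among the 17 of the mean, which is 34.5% of the Angelicae calls and 58.8% of the calls in the mean. The comparisons share libraries, so this overlap follows in part from the design. Nor were the 29 particular to Angelicae. Against the same vehicle libraries, all 29 had the same sign in Ginseng and in Paeoniae, and 28 had it in Poria. At an unadjusted edgeR p under 0.05 there were 29 in Ginseng, 24 in Paeoniae and 13 in Poria, none of them called. Among those that rose, PMVK, the phosphomevalonate kinase of cholesterol synthesis (chr1:154924734-154936991), had 19.8, 20.3 and 18.2 CPM in Angelicae and 13.9, 12.6 and 11.2 CPM in vehicle, which gave a log2 fold change of 0.63 (SE 0.139, edgeR adjusted p = 0.0366). COQ3, a methyltransferase of ubiquinone synthesis (chr6:99369400-99394204), had 11.2, 9.12 and 9.75 CPM in Angelicae and 8.20, 6.66 and 5.79 CPM in vehicle, with 0.54 (SE 0.118, edgeR adjusted p = 0.0366). MKS1, a protein of the ciliary transition zone (chr17:58205437-58219605), had 7.06, 8.07 and 7.68 CPM in Angelicae and 5.63, 4.69 and 5.35 CPM in vehicle, with 0.54 (SE 0.117, edgeR adjusted p = 0.0366). For these 3 genes the Angelicae libraries lay above vehicle without overlap, as the rule that named them required. That held for 12.2% of all genes in this comparison.

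SNRNP40, a protein of the U5 spliceosomal particle (chr1:31259568-31296782), rose by 0.28 in log2, with 75.0, 76.2 and 73.1 CPM in Angelicae and 66.2, 60.3 and 57.8 CPM in vehicle. The splicing factor SRSF5 (chr14:69726900-69772005) had 152, 154 and 147 CPM in Angelicae and 128, 137 and 126 CPM in vehicle, which gave a log2 fold change of 0.21 (SE 0.0461, edgeR adjusted p = 0.0366). MARS1, the cytosolic methionyl-tRNA synthetase (chr12:57475445-57517569), had 164, 176 and 171 CPM in Angelicae and 158, 152 and 142 CPM in vehicle, with 0.18 (SE 0.0402, edgeR adjusted p = 0.0366). It was the 1 of 12 aminoacyl-tRNA synthetases called in Angelicae, beside 0.173% of all genes. ZNF18 and FAM241B, named after their values were seen, rose at levels of a few CPM.

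Among those that fell, REG4, a secreted lectin-like protein of enteroendocrine and goblet cells (chr1:119794018-119811660), had 27.9, 28.6 and 29.9 CPM in Angelicae and 33.3, 35.5 and 38.5 CPM in vehicle, which gave a log2 fold change of -0.31 (SE 0.0693, edgeR adjusted p = 0.0366). REG4 and MUC5B were the 2 of 17 tested goblet and secretory genes called in Angelicae, beside 0.173% of all genes. F5, coagulation factor V (chr1:169514166-169586588), had 119, 122 and 127 CPM in Angelicae and 132, 152 and 170.5 CPM in vehicle, with -0.31 (SE 0.0700, edgeR adjusted p = 0.0446). CNOT4, a ubiquitin ligase that works with the CCR4-NOT deadenylase (chr7:135361795-135510127), had 32.9, 32.8 and 32.3 CPM in Angelicae and 40.0, 41.4 and 48.9 CPM in vehicle, with -0.41 (SE 0.0880, edgeR adjusted p = 0.0366). SRRM1, a splicing coactivator (chr1:24631716-24673267), had 164, 159.6 and 173 CPM in Angelicae and 190.1, 199 and 231 CPM in vehicle, with -0.32 (SE 0.0718, edgeR adjusted p = 0.0366). Vehicle replicate 3 was the highest of the 3 vehicle libraries for all 4 of these genes and also had the highest mitochondrial share, 11.4%. The same was not counted over all genes, and a link between the levels and the share was not tested. NFAT5, SP2 and ZMIZ1 fell in Angelicae too, with log2 fold changes of -0.31, -0.45 and -0.36. RAB11FIP1P1, a processed pseudogene whose parent gene can share its reads, had a log2 fold change of -0.45 and is uncertain.

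The genes called higher and lower in Angelicae differed in length and base composition, which the calling did not use. The 14 that rose had a median GC content of 54.5% and a median transcript length of 2468 bases, the 15 that fell had 45.5% and 5352 bases, and all genes tested had 48.9% and 2874 bases. In the mean of the 4 extracts the 9 that rose had 58.6% and 2539 bases and the 8 that fell had 51.2% and 3796 bases. After each library's trend on GC content was removed, 51 genes were called in Angelicae and 13 in the mean, 5 higher and 8 lower. Of the 29 calls in Angelicae 28 were kept, without RHOT2. In the mean 12 of the 17 were kept, and RHOT2, CENPT, MAN2C1, NAPRT and PSME3 lost their call.

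In Poria the genes of smallest p were AKR1B10, at 0.27 (95% interval 0.17 to 0.38) in log2, AQP1, a water channel, at 0.42 (95% interval 0.21 to 0.62), and ALDH3A1, an aldehyde dehydrogenase, at 0.23 (95% interval 0.12 to 0.35); CASP2 and RGS2 completed the first 5. None of them passed the test, with adjusted p of 0.0974 for AKR1B10 and 0.608 for the rest. In Ginseng, PGGHG, a glucosidase that acts on hydroxylysine-linked sugars, had 86.5, 103 and 116 CPM in Ginseng and 62.8, 64.6 and 65.9 CPM in vehicle, a log2 fold change of 0.66 (95% interval 0.39 to 0.93), and CREB3L1, a membrane-bound transcription factor of the secretory pathway, had 163, 172 and 174 CPM in Ginseng and 194, 204 and 223 CPM in vehicle, a log2 fold change of -0.29 (95% interval -0.40 to -0.17); both missed the threshold at 0.0519, as did CDK5RAP3, DDX11 and KLHL17. In Paeoniae, the endonuclease subunit EME2 had 71.9 and 73.8 CPM in Paeoniae and 51.4, 52.8 and 50.5 CPM in vehicle, a log2 fold change of 0.50 (95% interval 0.30 to 0.70), ahead of MAN2C1, ACAP3, FCHSD1 and PGGHG, again without a call.

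Across 39 lists of pathway and cell type genes, whose members fill 744 tested places, 1 rose in the mean of the 4 extracts, ACADVL of the fatty acid oxidation list, and 3 fell, CYP1A1, MUC5B and NFAT5, beside 17 of 16767 over all genes (0.101%). In Angelicae 3 rose, PMVK, SRSF5 and MARS1, and 3 fell, REG4, MUC5B and NFAT5, beside 29 of 16767 over all genes (0.173%). These shares over the lists lie above those over all genes, and the difference was not tested. The lists were chosen with earlier results of these data known, so it can follow in part from that choice. In Poria, Ginseng and Paeoniae none was called. Mitosis and G2/M genes (32 tested), interferon-stimulated genes (34), unfolded protein response genes (18) and FOXO targets (23) had no call in any of these comparisons, with medians in the mean of the 4 of 0.00, -0.02, 0.01 and -0.01 in log2, beside 3e-04 over all genes.

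Some lists lay to one side of 0. All 13 mitochondrially encoded genes were lower in the mean of the 4 extracts, with a median log2 change of -0.35, and in Angelicae, with -0.44; the share of these transcripts differed between libraries as given above, and its part was not tested. No member was called in either. Of 33 nuclear subunits of the respiratory chain, 28 were higher, with a median of 0.12, and of 31 proteasome subunits 25 were higher, with a median of 0.10. Of all genes tested, 8405 were higher and 8359 lower, with a median of 3e-04. Of 27 NRF2 target genes, 26 were higher in Poria with a median of 0.0867, 16 in Ginseng with 0.0476, 13 in Angelicae with -0.0022 and 22 in Paeoniae with 0.0718. Of 24 cholesterol genes, 22 were lower in Poria with a median of -0.0695, 13 in Ginseng with -0.0269, 9 in Angelicae with 0.0408, where PMVK was called, and 9 in Paeoniae with 0.037. The difference between extracts in these lists was not tested. Members of a list share libraries and are not replicates, so these counts are descriptions. The NRF2 target NQO1 had 534, 520.3 and 488 CPM in Poria and 503, 474 and 433 CPM in vehicle, with overlap.

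None of the 17 genes of the mean was called between doses. In the mean of the 4 extracts, 100 against 20 µg/mL gave 0 calls among all genes (0%), with 957 at an unadjusted p under 0.05 and 3 calls by DESeq2, and 500 against 20 µg/mL gave 384 calls (2.29%), 219 higher and 165 lower, with 2202 at an unadjusted p under 0.05. The lowest edgeR adjusted p among the 17 was 0.392 at 100 against 20 µg/mL and 0.107 at 500 against 20 µg/mL. At an unadjusted p under 0.05 there were 4 of the 17 at 100 and 5 at 500 µg/mL. Their log2 changes lay between -0.12 and 0.19 at 100 against 20 µg/mL and between -0.09 and 0.39 at 500 against 20 µg/mL. Their median absolute log2 change was 0.0334 at 100 against 20 µg/mL and 0.0281 at 500 against 20 µg/mL, beside 0.0357 and 0.048 over all genes tested. At each step 5 of the 17 had the sign they had against vehicle, and the rest had the opposite sign, toward vehicle. The 17 were chosen with the same 20 µg/mL libraries, so changes toward vehicle follow in part from that choice. For CDK5RAP3 the change at 500 against 20 µg/mL was -0.01 (95% interval -0.10 to 0.09), for NFAT5 -0.07 (95% interval -0.13 to -0.01) and for TRA2A 0.00 (95% interval -0.05 to 0.05). REG4, by contrast, was lower at 500 than at 20 µg/mL, with a log2 fold change of -0.20 (edgeR adjusted p = 0.000799).

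**Figure D2:**
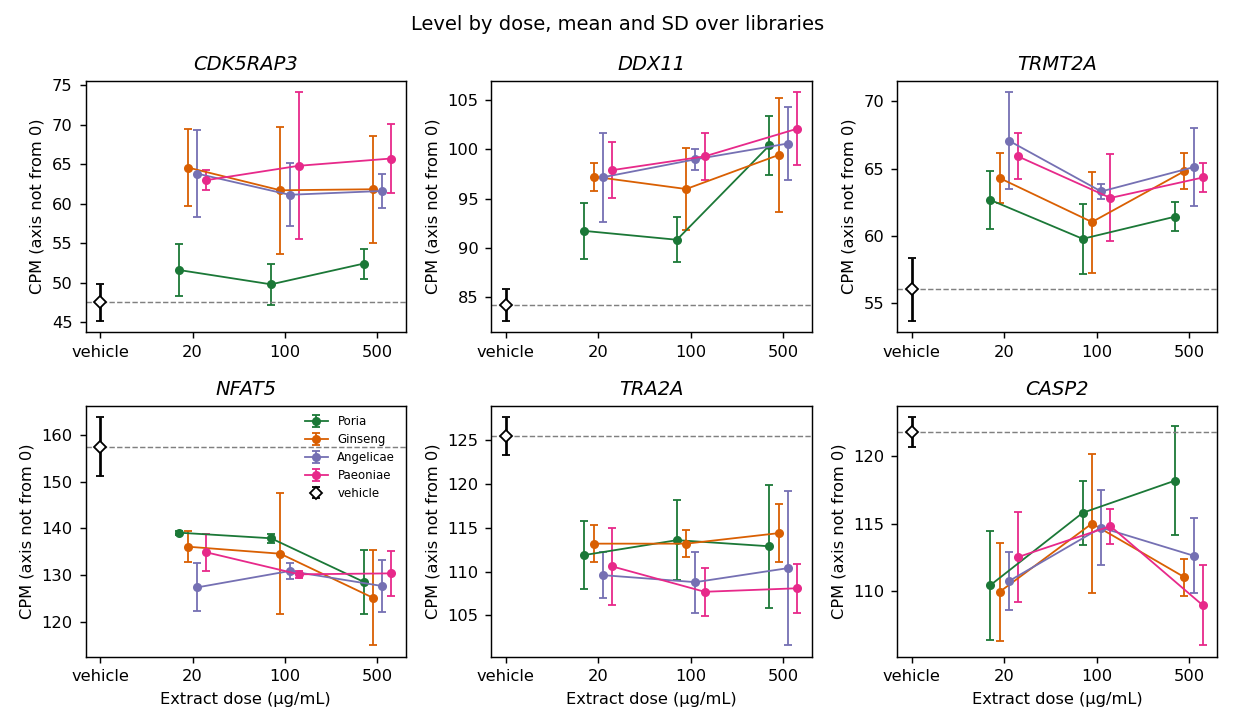
Mean CPM with SD over the libraries of each group (3, or 2 for Paeoniae) against dose in µg/mL, with vehicle at the left and as a dashed line, for 6 of the 17 genes chosen after their values were seen. Means at 20, 100 and 500 µg/mL lie on the same side of vehicle in each panel; axes do not start at 0.

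The 17 genes were then read in every extract library. Of all 51 extract libraries, counting 6 extracts and 3 doses, TIFA was above the 3 vehicle libraries in 51, DDX11, RHOT2 and TRMT2A in 50 each, CDK5RAP3 in 48, NAPRT and ACADVL in 41 each and MAN2C1 in 39. CENPT was above in 43 and below in 4. NFAT5 and TRA2A were below vehicle in 51, ZMIZ1 in 49, CASP2 in 48, MUC5B in 45, PSME3 in 44, SP2 in 43 and CYP1A1 in 12. Of the 6 libraries of Atractylodis and Glycyrrhizae at 20 µg/mL, 6 lay beyond vehicle in TIFA, CENPT, TRMT2A, CASP2, PSME3, TRA2A, NFAT5, ZMIZ1 and SP2. In CDK5RAP3, DDX11, RHOT2 and ACADVL 5 did, in MAN2C1, NAPRT and MUC5B 4, and in CYP1A1 2. These counts share the same 3 vehicle libraries and are no independent tests. The 51 include the 11 low-dose libraries from which the 17 genes were called, so part of each count followed from that choice. The same count over all genes tested was not made.

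The inhibitor libraries, which share the set number of vehicle, did not all lie with vehicle. How many of all genes tested had inhibitor libraries beyond vehicle was not counted, so the numbers that follow are descriptions only. CDK5RAP3 was above the 3 vehicle libraries in 6 of 6 inhibitor libraries, and CASP2, PSME3, SP2 and MUC5B were below in 6 of 6. MAN2C1 and NAPRT were above in 5 of 6, TRMT2A was above in 4, and TRA2A was below in 5. ACADVL was above in 4 and below in 1, RHOT2 above in 2 and below in 1, and ZMIZ1 above in 2 and below in 2. For CYP1A1 no inhibitor library lay beyond the vehicle range. NFAT5 was above in 3 and below in 2, DDX11 above in 2 and below in 3, TIFA above in 3 and below in 2, and CENPT below in 6, opposite to the extracts. NFAT5 averaged 159 ± 8.74 CPM in wortmannin and 160.0 ± 16.6 CPM in LY294002, against 158 ± 6.30 CPM in vehicle (SD, n = 3 each), and DDX11 averaged 86.3 ± 0.424, 74.5 ± 3.27 and 84.2 ± 1.60 CPM (SD, n = 3 each) in wortmannin, LY294002 and vehicle.

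Between the 4 extracts at 20 µg/mL, 6 pairs were compared without vehicle. Ginseng against Poria gave 3 calls (0.0179%) and Angelicae against Poria gave 5 (0.0298%). Paeoniae against Poria gave 0 (0%), with 721 genes at an unadjusted p under 0.05 and 1 call by DESeq2. Angelicae against Ginseng gave 0 (0%; 443 and 1), Paeoniae against Ginseng 0 (0%; 417 and 0) and Angelicae against Paeoniae, which share a code set, 0 (0%; 532 and 0). No gene of the 17 was called in any of these pairs. For CDK5RAP3, Angelicae differed from Paeoniae by 0.02 (95% interval -0.17 to 0.21) and Ginseng differed from Poria by 0.32 (95% interval 0.15 to 0.50) in log2; that second difference had an edgeR adjusted p of 0.292. For MUC5B, Angelicae differed from Poria by -1.05 (95% interval -1.60 to -0.50), with an edgeR adjusted p of 0.278. A miss of the threshold does not show that the extracts act alike.

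**Figure D3:**
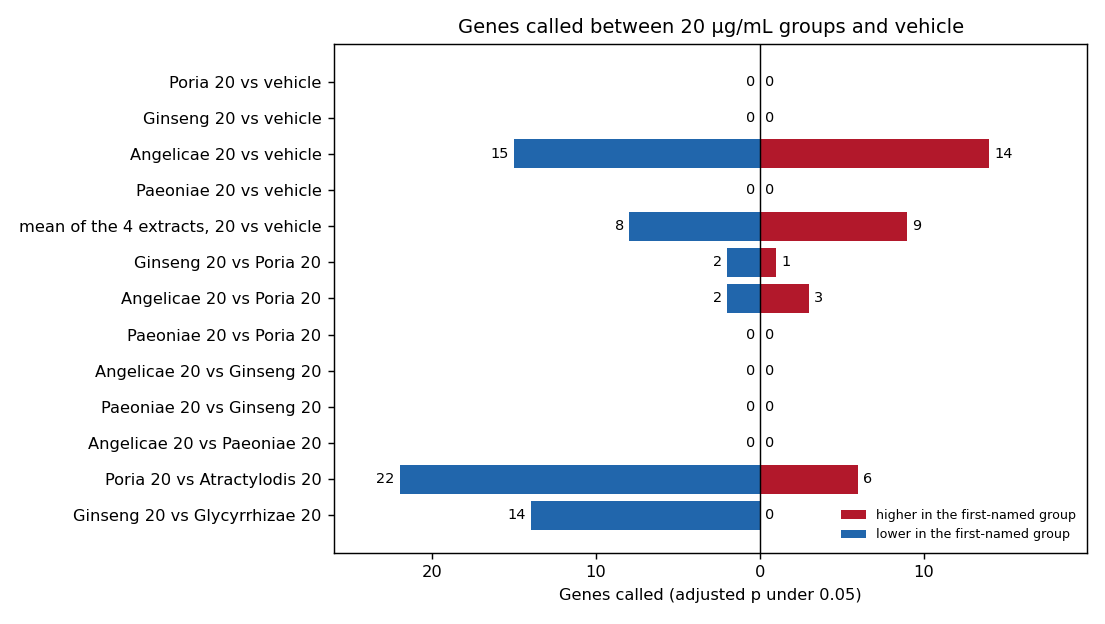
Genes called by edgeR at an adjusted p under 0.05 in each comparison at 20 µg/mL, higher in the first-named group to the right (red) and lower to the left (blue). Angelicae against vehicle had 14 and 15, and the pairs among the 4 extracts had 0 to 3 in each direction.

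Both pairs with calls involved Poria, and ALDH3A1 and ACSS2 were called in both. Each pair compares different code sets, so an effect of the extract and an effect of the set cannot be told apart in it. Within the code set of Poria, against Atractylodis, ALDH3A1 and AKR1B10 were called as well, whereas ACSS2, MMAB, ZNF18 and GALNT5 were not. ALDH3A1 (chr17:19737984-19748943) had 26.3, 28.1 and 24.2 CPM in Ginseng and 27.0, 25.7 and 25.3 CPM in Angelicae, against 33.0, 35.2 and 32.8 CPM in Poria. Neither group overlapped Poria, and the log2 differences from Poria were -0.36 (SE 0.0563, edgeR adjusted p = 0.00116) for Ginseng and -0.37 (SE 0.0564, edgeR adjusted p = 0.000622) for Angelicae. AKR1B10, an aldo-keto reductase that reduces retinal and lipid aldehydes (chr7:134527592-134541408), had 96.4, 103 and 89.7 CPM in Ginseng and 121, 119.5 and 109.6 CPM in Poria, a log2 difference of -0.27 (SE 0.0531, edgeR adjusted p = 0.0279). ACSS2, which makes acetyl-CoA from acetate in the cytosol (chr20:34872146-34927962), went the other way, with 28.01, 27.9 and 27.9 CPM in Ginseng and 28.9, 30.2 and 27.1 CPM in Angelicae, against 21.5, 21.6 and 22.6 CPM in Poria. Its log2 differences from Poria were 0.35 (SE 0.0680, edgeR adjusted p = 0.0279) and 0.39 (SE 0.0679, edgeR adjusted p = 0.00468). In vehicle ALDH3A1 had 28.9, 27.9 and 29.3 CPM, AKR1B10 102, 94.1 and 93.1 CPM and ACSS2 24.5, 26.7 and 25.8 CPM. Poria lay above all vehicle libraries in ALDH3A1 and AKR1B10 and below them in ACSS2. Leaving out 1 library gave 0 (without Ginseng replicate 3 or Poria replicate 2), 1 (without Poria replicate 1), 2 (without Poria replicate 3) or 3 calls in Ginseng against Poria. In Angelicae against Poria it gave 1 (without Poria replicate 1 or 2), 2 (without Poria replicate 3 or Angelicae replicate 3) or 3 (without Angelicae replicate 1 or 2), and there ALDH3A1 was called under every alternative run. A fit of the groups compared alone called 0 of these 3 genes in Ginseng against Poria and 2 of the 5 in Angelicae against Poria.

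Angelicae also exceeded Poria in MMAB, which adenosylates vitamin B12 (chr12:109553737-109573874), with 42.4, 46.2 and 43.7 CPM in Angelicae and 36.7, 34.7 and 37.0 CPM in Poria, a log2 difference of 0.29 (SE 0.0558, edgeR adjusted p = 0.0262). Named after their values were seen, the zinc finger gene ZNF18 was higher by 0.72 (SE 0.148, edgeR adjusted p = 0.0456), and GALNT5, which starts mucin-type glycans, was lower, at -0.71 (SE 0.140, edgeR adjusted p = 0.0297). Among pairs without calls, COA8, a mitochondrial assembly factor, had the smallest p between Angelicae, with 16.7, 14.7 and 15.6 CPM, and Paeoniae, with 11.4 and 12.7 CPM, and an adjusted p of 0.474.

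**Figure D4:**
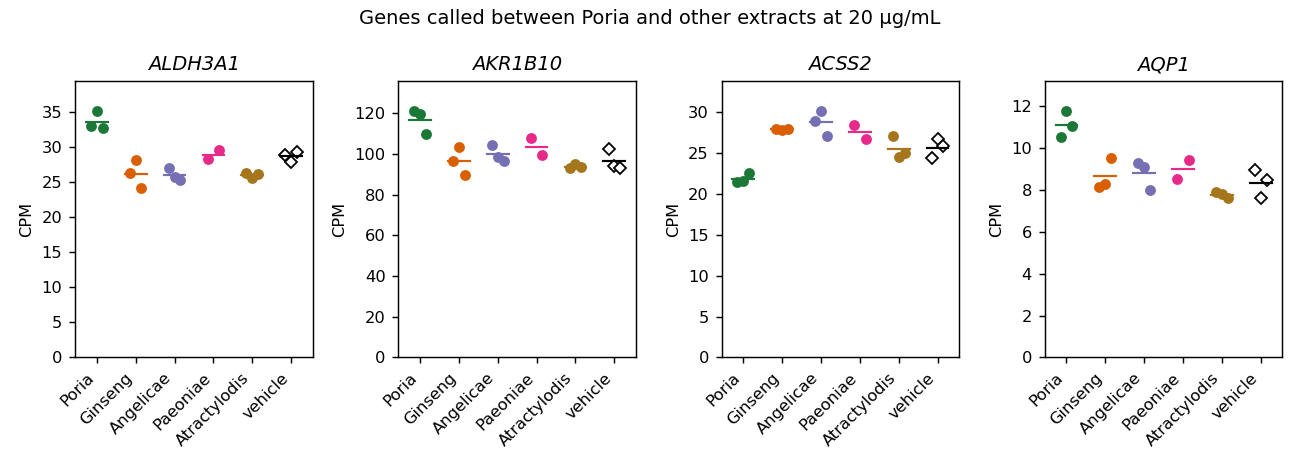
CPM of each library at 20 µg/mL for 4 genes called between Poria and another extract, with short lines at group means and open diamonds for vehicle; axes start at 0. The 3 Poria libraries lie above all others in ALDH3A1, AKR1B10 and AQP1 and below all others in ACSS2 among the groups drawn, with 21.5, 21.6 and 22.6 CPM.

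Within code sets, Poria and Ginseng were set against the other extract of their set at the same dose. Poria against Atractylodis gave 28 calls (0.167%), 6 higher and 22 lower, and Ginseng against Glycyrrhizae gave 14 (0.0835%), all lower. Of 24 tested members of a list of NF-kB targets and chemokines, 6 were lower in each comparison. The elastase inhibitor PI3, the iron-sequestering LCN2, the antibody transporter PIGR, the complement genes C3 and CFB, CEACAM7 and the chemokines CXCL1, CXCL5 and CXCL6 were called lower in both; CCL20 was called in the first alone and CXCL8 in the second alone, a difference not tested. For each of these genes all 6 libraries of Atractylodis and Glycyrrhizae lay above the 3 vehicle libraries. Leaving out 1 library gave 15 (without Poria replicate 2 or 3) to 48 calls (without Atractylodis replicate 1) in the first, and 5 (without any 1 of the Ginseng libraries), 7 (without Glycyrrhizae replicate 1 or 3) or 9 (without its replicate 2) in the second. PI3, LCN2, PIGR and C3 were called in both under every alternative run. PI3 (chr20:45174876-45176544) had 7.28, 5.48 and 6.12 CPM in Poria against 30.7, 25.0 and 28.6 CPM in Atractylodis, a log2 difference of -2.16 (SE 0.186, edgeR adjusted p = 4.93e-11). It had 6.05, 5.07 and 4.55 CPM in Ginseng against 18.8, 17.1 and 16.6 CPM in Glycyrrhizae, a difference of -1.74 (SE 0.192, edgeR adjusted p = 8.04e-08). Vehicle was at 6.40, 6.29 and 6.59 CPM, inside the Poria range and above the 3 Ginseng libraries.

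LCN2 (chr9:128149071-128153455) had 114, 102 and 118 CPM in Poria against 188, 175 and 186 CPM in Atractylodis, a log2 difference of -0.71 (SE 0.0925, edgeR adjusted p = 2.53e-06), and 101, 107 and 102 CPM in Ginseng against 157, 142 and 151 CPM in Glycyrrhizae, a log2 difference of -0.53 (SE 0.0924, edgeR adjusted p = 0.00277). Vehicle had 107, 121 and 123 CPM, and no Poria or Ginseng library lay above all 3 of them. CXCL1, a neutrophil attractant (chr4:73869393-73871242), had 11.8, 2.58 and 2.28 CPM in Poria against 37.7, 25.0 and 33.5 CPM in Atractylodis, a log2 difference of -2.55 (SE 0.522, edgeR adjusted p = 0.0118). In Ginseng it had 3.31, 1.90 and 2.15 CPM against 26.3, 16.3 and 17.4 CPM in Glycyrrhizae, a difference of -3.01 (SE 0.591, edgeR adjusted p = 0.0149). CXCL8 (chr4:73740506-73743716) was lower in Ginseng than in Glycyrrhizae, with 8.31, 5.92 and 6.63 CPM in Ginseng and 24.2, 23.3 and 23.1 CPM in Glycyrrhizae, a difference of -1.75 (SE 0.371, edgeR adjusted p = 0.0329), while vehicle had 6.57, 6.33 and 5.88 CPM and 2 of the 3 Ginseng libraries lay above all of these.

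Poria replicate 1 stood apart from the other Poria libraries in this group of genes. Its CXCL1, at 11.8 CPM, and its CXCL8, at 19.3 CPM, exceeded those of replicates 2 and 3 (2.58 and 2.28 CPM, and 6.39 and 5.53 CPM). CCL20, which attracts lymphocytes and was named after its values were seen, had 1.33, 0.218 and 0.0845 CPM in Poria. Without that library Poria against Atractylodis gave 35 calls. PIGR had 0.728, 0.726 and 0.296 CPM and CFB 1.38, 1.52 and 0.971 CPM in Poria, where replicate 1 lay close to replicate 2. In the other extracts CXCL1 had 2.32, 1.77 and 1.49 CPM in Angelicae and 2.46 and 1.90 CPM in Paeoniae, against 1.58, 1.93 and 2.25 CPM in vehicle, and both groups overlapped vehicle.

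Genes at the detection limit followed the same division and were named after their values were seen. C3 had 0.121, 0.109 and 0.0845 CPM in Poria against 2.52, 2.18 and 1.97 CPM in Atractylodis, and 0.164, 0.141 and 0.0717 CPM in Ginseng against 1.72, 1.56 and 1.36 CPM in Glycyrrhizae, beside 0.0854, 0.0822 and 0 CPM in vehicle. SAA1, an acute-phase protein with a near-identical paralog, was at 0 in the 3 Poria libraries against 0.564, 0.556 and 0.265 CPM in Atractylodis. CXCL5 was at 0 in the 3 Ginseng libraries against 0.409, 0.399 and 0.475 CPM in Glycyrrhizae. Poria was also lower than Atractylodis in the interferon-stimulated genes OAS1, IFIT1 and SLFN5, with differences of -0.40, -0.50 and -0.47 in log2. Ginseng was lower than Glycyrrhizae in OAS3, with a difference of -0.35. Over 12 alternative runs of each comparison, SLFN5 was called in 12, OAS3 in 7, OAS1 in 6 and IFIT1 in 4. These genes were picked from the calls, which were 0.167% and 0.0835% of all genes tested. The genes higher in Poria than in Atractylodis were AQP1, with 10.52, 11.8 and 11.02 CPM in Poria and 7.86, 7.79 and 7.58 CPM in Atractylodis, a log2 difference of 0.52 (SE 0.101, edgeR adjusted p = 0.00579), ALDH3A1 (0.37), AKR1B10 (0.32), TPPP, SPHK2 and MGLL.

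**Figure D5:**
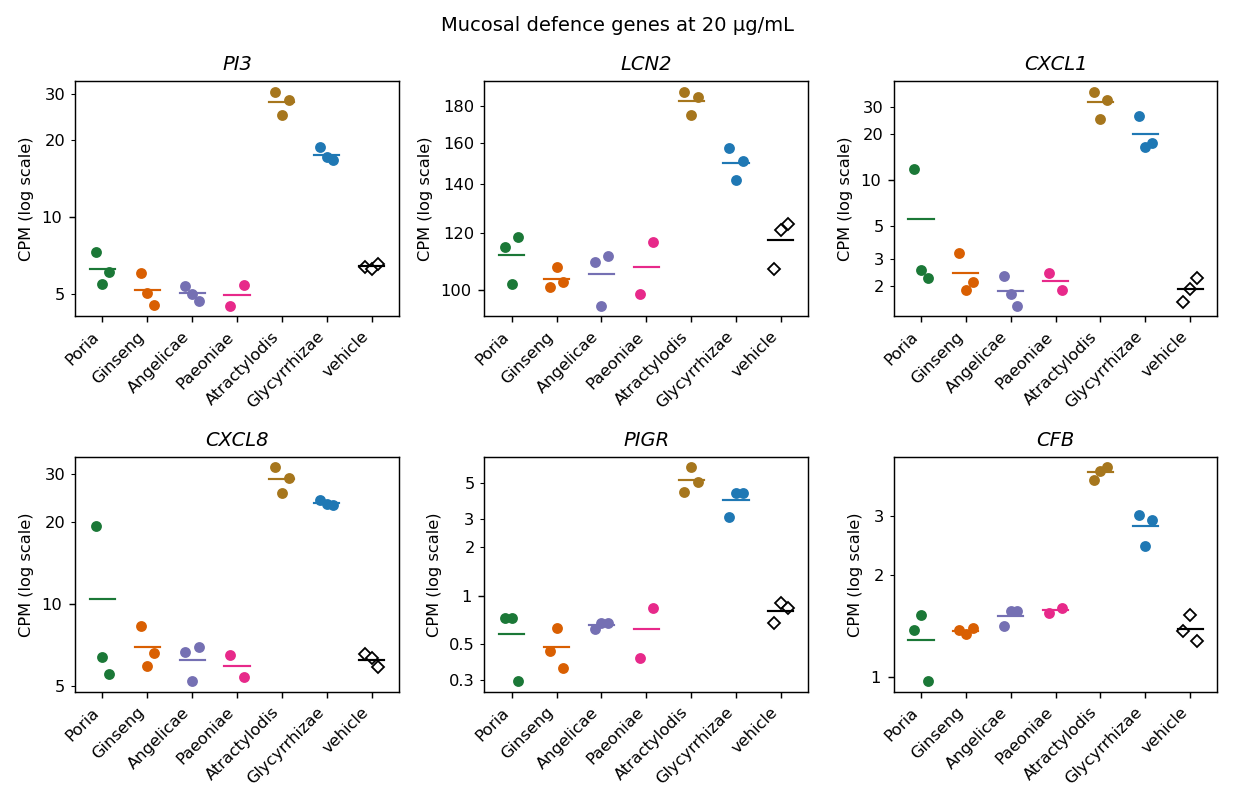
CPM of each library at 20 µg/mL on a log scale for 6 mucosal defence genes, with short lines at group means; Poria, Ginseng, Angelicae and Paeoniae are on the left, Atractylodis and Glycyrrhizae next, and vehicle (open diamonds) on the right. The Atractylodis and Glycyrrhizae libraries lie above all vehicle libraries in each panel, and Poria replicate 1 reaches 19.3 CPM in CXCL8.

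The promoters of 3 chemokine genes that were lower in Poria than in Atractylodis and in Ginseng than in Glycyrrhizae are shown because they share 1 motif near the start. A motif of GGG, 2 free bases and TTTCC, of the type NF-kB binds, was searched on both strands over the 250 bases before the RefSeq start (GRCh38.p14) of 8 defence genes. It matched in CXCL1, CXCL5, CXCL6 and CCL20 and not in CXCL8, LCN2, PIGR and CFB, beside 1.73% of 35116 promoter windows. Other forms of the site were not searched, so a window without this match can still hold a site. The 8 genes were picked by hand, and the 3 shown were picked among those with a match. The match is in capitals and lies 79 bases before the start in CXCL1 (chr4:73869143-73869392, plus strand), 91 in CXCL5 (chr4:73998678-73998927, minus strand) and 90 in CXCL6 (chr4:73836428-73836677, plus strand). CXCL5 and CXCL6 are paralogs, so their promoters are not independent, and reads can be split between these genes. On the chromosome, CXCL1 lies between them.
CXCL1: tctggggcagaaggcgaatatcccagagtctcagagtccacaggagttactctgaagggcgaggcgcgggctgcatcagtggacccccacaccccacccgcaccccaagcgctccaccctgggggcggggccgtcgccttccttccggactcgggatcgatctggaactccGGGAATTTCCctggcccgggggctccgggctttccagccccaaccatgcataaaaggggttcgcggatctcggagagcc
CXCL5: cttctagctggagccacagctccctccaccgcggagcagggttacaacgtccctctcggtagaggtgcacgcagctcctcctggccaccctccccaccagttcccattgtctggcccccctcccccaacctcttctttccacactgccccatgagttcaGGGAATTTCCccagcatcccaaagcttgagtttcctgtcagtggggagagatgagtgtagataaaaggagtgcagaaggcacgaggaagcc
CXCL6: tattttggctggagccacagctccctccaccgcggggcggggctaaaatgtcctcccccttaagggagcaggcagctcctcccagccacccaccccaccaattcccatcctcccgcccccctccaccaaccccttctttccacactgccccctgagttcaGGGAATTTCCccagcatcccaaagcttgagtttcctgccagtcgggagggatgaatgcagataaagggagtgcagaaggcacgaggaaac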

How the data were processed

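RNA of HT29 cells was sequenced as paired 100-base directional mRNA libraries, per the labels' protocols. The authors deposited RSEM expected counts per gene; FastQC 0.11.9, Trim Galore 0.6.5, STAR 2.7.3a, RSEM 1.3.3 and GRCh38 are named in the submitters' processing notes, and the strand setting is not given in the sources used here. Of the 60675 genes, 26276 had no count in the 60 libraries; 24.2% of values above 0 were not whole. The labels give 0.1% DMSO, whereas the series text gives 2%. Another 213 columns of the table were not used.

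Expected counts were rounded and tested with edgeR 4.0.16 (quasi-likelihood F-test, limma 3.58.1, R 4.3.3) in 1 model of 21 groups and 60 libraries with 39 residual degrees of freedom, TMM scaling and a filter (filterByExpr, minimum count 10, minimum total 15) that left 16767 genes. Libraries of a group varied with a common coefficient of 0.057. Benjamini-Hochberg adjustment ran within each comparison, and genes were called at an adjusted p under 0.05; SE is the absolute log2 fold change over the root of F. CPM are counts scaled by library size and TMM factor and are not divided by length, so they compare libraries and not genes. Named genes were the called genes with a mean of at least 5 CPM and no overlap between groups (up to 12, 8 or 5 per direction for the mean, an extract and other comparisons), called list members, and, where under 3 were called, the 5 of smallest p. Members, lists and rules were chosen with earlier results of these data known.

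DESeq2 1.42.0, RLE scaling, no filter, fits of the groups compared only, a replicate block and leaving out each library were alternatives; leaving out each extract and a GC correction (99.3% of tested genes had a GC value) were added after seeing the data. Replicate pairs differed by more than counting noise (median squared difference 0.81 to 2.19, against 0.455 for noise alone, 13 pairs), so no pair was taken as a repeat of 1 library; this does not show separate cultures. Positions are GRCh38; promoters are RefSeq, GRCh38.p14. Permutation tests over libraries were exact and two-sided.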

Additional observations from a re-analysis of the deposited data

How the results depend on the processing

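The counts of called genes moved by more than 1.5 times under several alternatives, while the direction of all named genes other than CYP1A1 was kept. DESeq2 called 1 in Poria against vehicle, 155 in Ginseng against vehicle, 443 in Angelicae against vehicle, 13 in Paeoniae against vehicle, 151 in the mean of the 4 extracts against vehicle, 8 in Ginseng against Poria, 11 in Angelicae against Poria, 1 in Paeoniae against Poria, 1 in Angelicae against Ginseng and 3 in 100 against 20 µg/mL. Without a filter on low counts edgeR called 98 in Poria against vehicle, 808 in Ginseng against vehicle, 1141 in Angelicae against vehicle, 213 in Paeoniae against vehicle, 844 in the mean of the 4 extracts against vehicle, 238 in Ginseng against Poria, 346 in Angelicae against Poria, 115 in Paeoniae against Poria, 71 in Angelicae against Ginseng, 57 in Paeoniae against Ginseng, 101 in Angelicae against Paeoniae, 312 in Poria against Atractylodis, 90 in Ginseng against Glycyrrhizae and 54 in 100 against 20 µg/mL. Fits of the groups compared only called 6 in Ginseng against vehicle, 388 in Angelicae against vehicle, 4 in Paeoniae against vehicle, 35 in the mean of the 4 extracts against vehicle, 16 in Angelicae against Poria, 2 in Paeoniae against Poria, 2 in Paeoniae against Ginseng, 3 in Angelicae against Paeoniae, 16 in Poria against Atractylodis and 244 in 500 against 20 µg/mL. RLE scaling called 11 in the mean of the 4 extracts against vehicle, and the GC correction 1 in Poria against vehicle, 17 in Ginseng against vehicle and 51 in Angelicae against vehicle. The mean without Ginseng, Angelicae or Paeoniae gave 0 calls each, and without Poria 243. The cause of these differences was not tested.

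Same-numbered extract and vehicle libraries shared a mean residual correlation of 0.034 (lowest -0.054, highest 0.1331), against -0.017 for different numbers, so the numbers were not taken to pair the samples. With the replicate number as a block, edgeR called 1 in Poria against vehicle, 77 in Ginseng against vehicle, 234 in Angelicae against vehicle, 25 in Paeoniae against vehicle, 139 in the mean of the 4 extracts against vehicle, 5 in Ginseng against Poria, 17 in Angelicae against Poria, 3 in Paeoniae against Poria, 49 in Poria against Atractylodis and 632 in 500 against 20 µg/mL.

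Leaving out 1 library at a time gave 0 to 1 calls in Poria against vehicle, 0 to 6 calls in Ginseng against vehicle, 0 to 141 calls in Angelicae against vehicle, 0 calls in Paeoniae against vehicle, 0 to 34 calls in the mean of the 4 extracts against vehicle, 0 to 3 calls in Ginseng against Poria, 1 to 3 calls in Angelicae against Poria, 0 calls in Paeoniae against Poria, 0 to 1 calls in Angelicae against Ginseng, 0 to 1 calls in Paeoniae against Ginseng, 0 calls in Angelicae against Paeoniae, 15 to 48 calls in Poria against Atractylodis, 5 to 9 calls in Ginseng against Glycyrrhizae, 0 to 2 calls in 100 against 20 µg/mL and 239 to 400 calls in 500 against 20 µg/mL; where a group was left with 1 library, that library was assumed to vary like the other groups. For 100 against 20 µg/mL the highest came without Ginseng replicate 1 of 20 µg/mL, and for 500 against 20 µg/mL counts under 250 came without Paeoniae replicate 2 of 20 µg/mL (239) or replicate 1 of 500 µg/mL (241). The log2 fold change of CYP1A1 in the mean was -1.91 without vehicle replicate 3 and 0.051 (edgeR adjusted p = 0.955) without vehicle replicate 1. It was the 1 gene value that turned direction among 1928 recomputed values of named genes, of which 511 lost and 62 gained a call.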
